A study of Mus musculus with 16 samples.

Results

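The genes described here encode the cap-binding complex eIF4F, its paralogues and the 4E-BP repressors of that complex. They were chosen by name, with earlier results of these data known, and all 10 were found among 35968 mouse genes with a matched transcript. Their roles divide them into 3 cap-binding proteins (Eif4e, Eif4e2 and Eif4e3), 3 scaffolds (Eif4g1, Eif4g2 and Eif4g3), 2 helicases (Eif4a1 and Eif4a2) and 2 repressors (Eif4ebp1 and Eif4ebp2). All 10 passed the filter on low counts, which left 18944 genes for testing. Poly(A)-selected RNA was sequenced from mouse embryonic stem cells (ESCs), which are pluripotent cells of the early embryo. The 4 groups, of 4 libraries each, were Dgcr8 knockout (KO) cells on day 2 of culture with an mTOR inhibitor (KO paused), KO cells in normal ESC medium (KO normal), wild-type (WT) cells on day 2 with the inhibitor (WT paused), and WT cells in normal medium (WT normal). The labels give 800000 cells and 1 µg of total RNA per sample, and name neither the inhibitor, the strain, nor the deleted part of Dgcr8. They do not say whether libraries of a group came from separate cultures, and p-values therefore speak of the spread among these libraries only.

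Most messenger RNAs are recruited to the ribosome through their 5′ cap. The protein eIF4E binds the cap, the scaffold eIF4G joins it to the ribosomal subunit, and the helicase eIF4A unwinds the leader. 4E-BPs bind eIF4E on the surface that eIF4G uses and so block assembly, and the kinase complex mTORC1 phosphorylates 4E-BPs and releases eIF4E. Inhibition of mTOR is known to act on the 4E-BP proteins through their phosphorylation, which was not measured here. Dgcr8 binds primary microRNA hairpins so that Drosha can cleave them, and ESCs without it lack most mature microRNAs.

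Because Dgcr8 is known for that processing, the seeds of microRNA families known in mouse ESCs were searched for in the 3′ UTRs of these genes. Loss of microRNAs in these KO cells was not analysed. The mature sequences of 4 of the 9 microRNAs used, from RefSeq on GRCm38.p6, are given with bases 2 to 8, the seed, in capitals.
mmu-miR-294-3p: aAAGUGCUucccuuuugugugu
mmu-miR-302b-3p: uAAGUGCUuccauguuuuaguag
mmu-miR-17-5p: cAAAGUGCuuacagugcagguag
mmu-let-7a-5p: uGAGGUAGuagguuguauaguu
The first seed is also that of miR-291a-3p, miR-295-3p and miR-302d-3p, and the miR-17-5p seed is also that of miR-20a-5p and miR-93-5p. Matches were searched on the transcript strand alone. AGCACTT pairs with the miR-294-3p seed. GCACTTT pairs with the miR-17-5p seed and overlaps the match before it in all but its last letter. CTACCTC pairs with the let-7a-5p seed. Of 16826 genes with an annotated 3′ UTR, 16.5% held AGCACTT, 13.3% held GCACTTT and 10.4% held CTACCTC in the longest 3′ UTR of their protein-coding transcripts. Measured that way, Eif4e, Eif4e2 and Eif4g2 held a match and the other 7 genes held none. Among all member transcripts with an annotated 3′ UTR, AGCACTT was also in the minor Eif4a2-217 and Eif4a2-223, at a mean of 0.728 and 0.188 TPM, and not in the main forms of Eif4a2.

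The matches in Eif4e2 lay in its long 3′ UTR, carried by transcripts Eif4e2-202 and Eif4e2-207, at chr1:87238472-87238478 and chr1:87240201-87240207 on the plus strand of GRCm38. The shorter 3′ UTRs of Eif4e2-203, Eif4e2-204 and Eif4e2-205 lacked both. The match of Eif4e lay in Eif4e-201, its transcript with the long 3′ UTR, at chr3:138557732-138557738 on the plus strand. Matches in Eif4g2 lay on the minus strand of chromosome 7. The matches at chr7:111072325-111072331 and chr7:111072208-111072214 were in Eif4g2-206 and in Eif4g2-213, and the match at chr7:111068459-111068465 was in Eif4g2-213 alone. Each is shown with 10 flanking bases on either side and the match in capitals. A match of letters is a description and not a measured site.
Eif4e2, match to the miR-294-3p seed: tgggcactgaAGCACTTaaattgtgat
Eif4e2, match to the miR-17-5p seed: ttttcgtgttGCACTTTgagaggattg
Eif4e, match to the miR-294-3p seed: taataactacAGCACTTacataataag
Eif4g2, match to the miR-17-5p seed: ctgtagagatGCACTTTgctcagtaat
Eif4g2, match to the let-7a-5p seed: gcctgtatttCTACCTCtagtaatggg
Eif4g2, match to the miR-294-3p seed: agaggtttccAGCACTTgtctctctct

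Libraries held 88377380 to 116646028 estimated counts. Replicates 1 and 2 of WT normal stood apart from replicates 3 and 4, with chi-square values whose median over genes was 10.51 to 14.61 between them, against 1.33 to 5.95 for the other pairs of libraries within a group. The fits were therefore repeated with replicates 1 and 2 of every group alone and with replicates 3 and 4 alone. All 8 pluripotency markers examined were at or above 1 CPM in each group, and 5 or 6 of 8 fibroblast markers were below it. Summed over 8 markers each, endoderm genes were at 164 to 180 CPM in KO paused, 169 to 177 in KO normal, 231 to 306 in WT paused and 226 to 296 in WT normal, with Foxa2 under 1 CPM in all groups. Trophoblast genes were at 85.5 to 89.7, 44.5 to 46.6, 53.3 to 67.9 and 72.9 to 85.5 CPM in the same order, with Cdx2, Elf5 and Hand1 under 1 CPM in all groups. Pluripotency genes were at 7054 to 7247, 5552 to 5742, 5990 to 6240 and 4767 to 5129 CPM, and fibroblast genes at 21.5 to 23.9, 30.8 to 34.4, 14 to 17.8 and 17.3 to 19.1 CPM. The part of these shifts in the results was not tested. Dgcr8 itself had 173 to 187 CPM in KO paused and 246 to 256 CPM in KO normal, against 50.8 to 56.2 CPM in WT paused and 45.3 to 49.2 CPM in WT normal. The level of Dgcr8 was thus higher in KO cells, and because the deleted part is not given it checks no label. Levels compared between groups are CPM, counts scaled to a common library size, after TMM. Every rise or fall is thus relative to the library, and a change in total RNA per cell would not show. TPM, which also correct for transcript length, are used for the order and shares of genes or transcripts within a library. They are not used for differences between groups, because the predicted gene Gm19220 took 1.26% to 15.5% of all TPM and the median TPM ratio between groups was 0.08 to 0.28 on the log2 scale. In these bulk samples, fewer cells that express a gene and less RNA per cell cannot be told apart.

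Pausing changed most of these genes in both genotypes, by edgeR's quasi-likelihood test with Benjamini-Hochberg adjustment over all 18944 genes at 0.05. In KO cells 2 of the 10 genes were higher and 6 were lower in paused than in normal culture, where 67.2% of all genes tested were called, 34.4% higher and 32.8% lower. In WT cells 3 were higher and 6 were lower, where 60.7% of all genes were called, 33.3% higher and 27.5% lower. The paused and normal libraries did not overlap for 9 of the 10 genes in KO cells, beside 64% of all genes, and for 8 in WT cells, beside 54%. The median log2 fold change of the 10 genes was -0.33 in KO and -0.30 in WT cells, beside 0.02 and 0.04 over all genes tested.

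Most of them also differed between KO and WT cells. KO paused against WT paused cells had 2 genes higher and 6 lower, beside 65.4% of all genes called, 30.8% higher and 34.5% lower. KO normal against WT normal cells had 2 higher and 5 lower, beside 68.2% of all genes called, 34.1% in each direction. KO and WT libraries did not overlap for 8 of the 10 genes in paused culture, beside 63.4% of all genes, and for 6 in normal culture, beside 60.5%. The 2 higher genes were Eif4e2 and Eif4ebp1 in each culture. The size of the pausing response differed between the genotypes, a test called the interaction, for Eif4g2, Eif4g3, Eif4a1, Eif4ebp1 and Eif4ebp2, which are 5 of the 10, where 41.9% of all genes were called, 17.4% higher and 24.5% lower. With shares of called genes this high, the counts do not set these genes apart from the rest, and the sizes and directions of single genes carry the description.

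**Figure D1:**
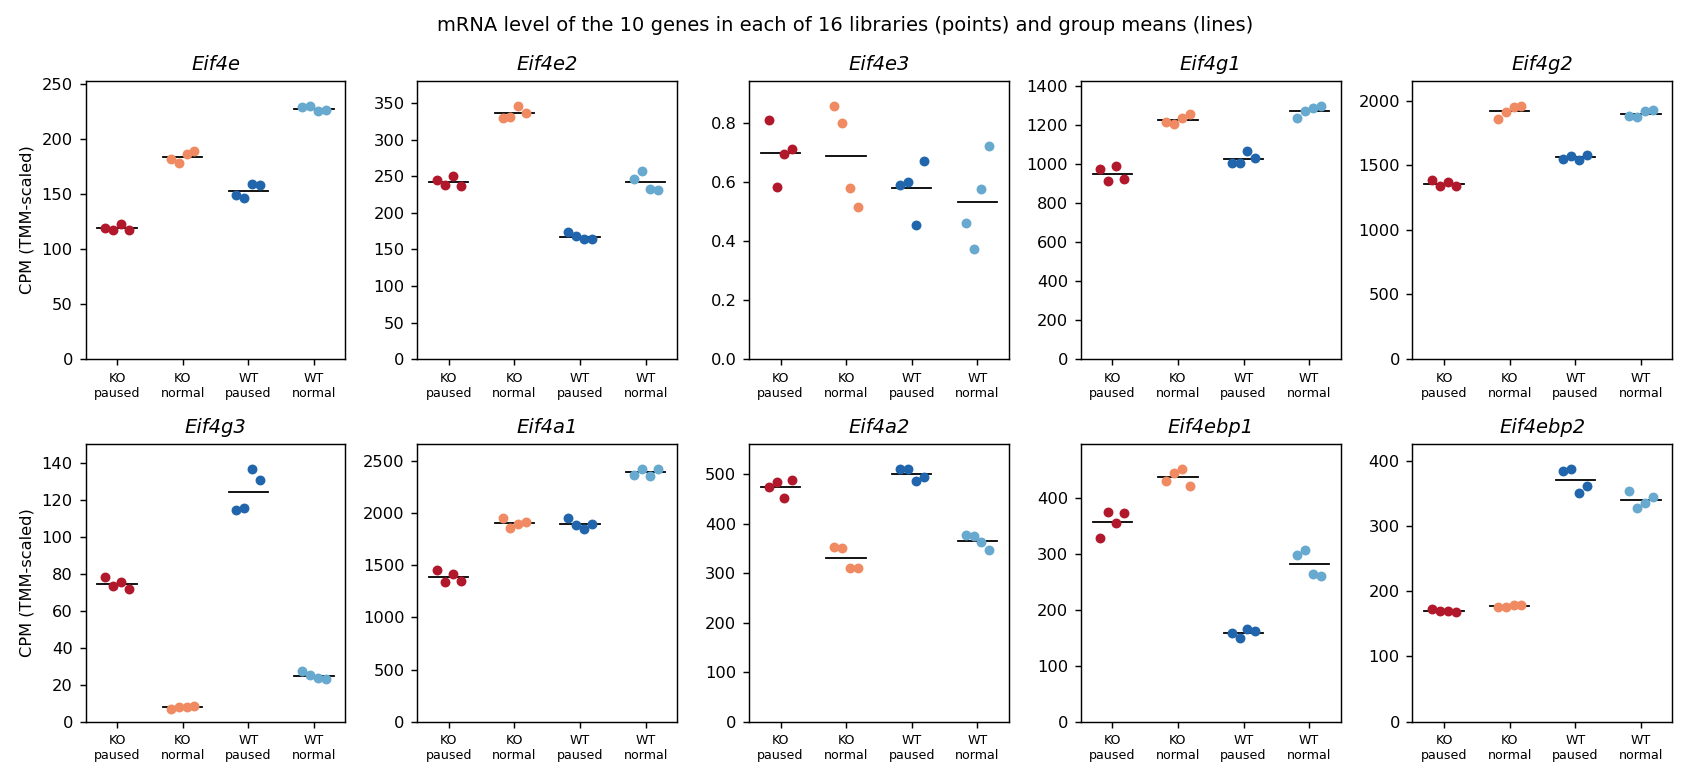
Level of each of the 10 genes in CPM after TMM scaling (y axis, from 0, with its own range per panel) in the 4 libraries of KO paused, KO normal, WT paused and WT normal cells; points are libraries and lines are group means. Eif4g3 averaged 74.9 CPM in KO paused against 7.84 CPM in KO normal libraries, and Eif4ebp1 and Eif4ebp2 differed between KO and WT in opposite directions.

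**Figure D2:**
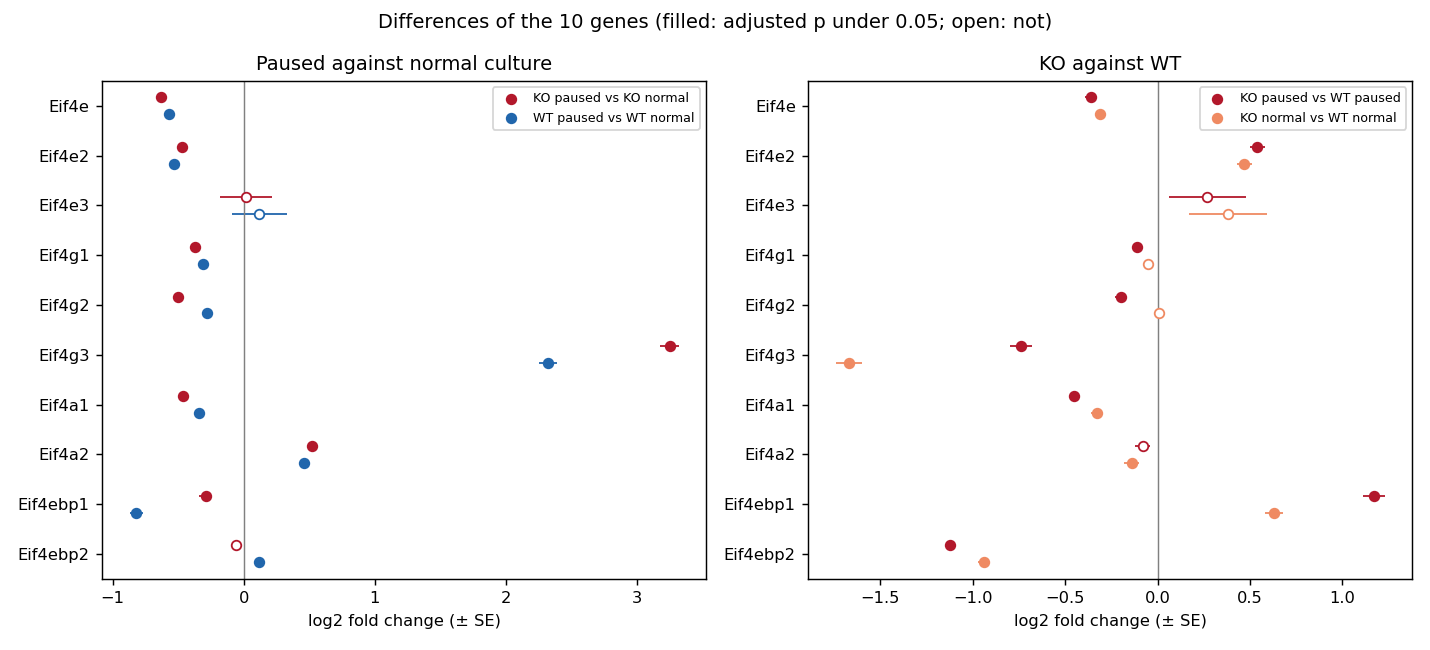
Log2 fold change with its SE (x axis) of each gene, on the left in paused against normal culture for KO and WT cells, on the right in KO against WT cells for paused and normal culture; filled points passed an adjusted p of 0.05 in edgeR. The pausing response of Eif4g3, 3.25 in KO and 2.32 in WT cells, lies far to the right of the other 9 genes.

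Among the cap-binding genes, Eif4e, the cap receptor of eIF4F, fell with pausing in both genotypes and was lower in KO than in WT cells in both cultures. Its CPM were 119, 117, 123 and 117 in KO paused and 182, 178, 187 and 189 in KO normal libraries, a log2 fold change of -0.63 ± 0.03 (SE, edgeR adjusted p = 1.2e-11). In WT cells they were 149, 147, 159 and 158 paused and 229, 230, 226 and 227 normal, a log2 fold change of -0.57 ± 0.03 (edgeR adjusted p = 5e-11). Every paused library was below every normal library of its genotype, and every KO library below every WT library of its culture. The KO minus WT difference was -0.36 ± 0.03 in paused (edgeR adjusted p = 2.3e-08) and -0.31 ± 0.03 in normal culture (edgeR adjusted p = 1.6e-07) on the log2 scale. The 2 pausing responses were not shown to differ, with an interaction of -0.05 ± 0.05. Replicates 1 and 2 alone gave -0.64 for pausing in WT cells and -0.35 for KO against WT in normal culture, and replicates 3 and 4 alone gave -0.52 and -0.27.

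Eif4e2, known as 4EHP, binds the cap without joining eIF4G and is known as a translational repressor with the partner Gigyf2. It fell with pausing like Eif4e but differed between the genotypes in the other direction. Eif4e2 had 245, 238, 251 and 237 CPM in KO paused libraries, 330, 332, 346 and 337 in KO normal, 174, 168, 164 and 164 in WT paused, and 246, 258, 233 and 231 in WT normal. KO paused libraries overlapped with WT normal libraries and no others. The log2 fold change of pausing was -0.47 ± 0.04 in KO (edgeR adjusted p = 2.1e-09) and -0.53 ± 0.04 in WT cells (edgeR adjusted p = 4.9e-10). Eif4e2 was 1.45-fold higher in KO than in WT cells in paused (log2 0.54 ± 0.04, edgeR adjusted p = 4.1e-10) and 1.39-fold higher in normal culture (log2 0.47 ± 0.04, edgeR adjusted p = 1.8e-09). Replicates 1 and 2 alone gave -0.56 for pausing in WT cells and 0.39 for KO against WT in normal culture, and replicates 3 and 4 alone gave -0.51 and 0.55.

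Eif4e3, an atypical cap-binding paralogue, was barely detected. It had 70 to 75 estimated counts in KO paused, 48 to 83 in KO normal, 46 to 64 in WT paused and 38 to 61 in WT normal libraries. These were 0.581 to 0.808, 0.515 to 0.855, 0.452 to 0.67 and 0.373 to 0.722 CPM in the same order, and all groups overlapped. No comparison of Eif4e3 passed the threshold, with log2 fold changes of 0.02 ± 0.20 and 0.12 ± 0.21 for pausing in KO and WT cells and 0.27 ± 0.21 and 0.38 ± 0.21 for KO against WT in paused and normal culture. Its KO against WT difference in normal culture was called with replicates 1 and 2 alone (0.99, edgeR adjusted p = 0.002) and without WT normal replicate 4 (0.55, edgeR adjusted p = 0.031), and was -0.25 with replicates 3 and 4 alone.

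Of the scaffolds, Eif4g3, which encodes eIF4GII, gave by far the largest response of the 10 genes. Its CPM were 78.2, 73.7, 75.7 and 71.8 in KO paused and 7.02, 7.97, 7.92 and 8.45 in KO normal libraries. They were 115, 116, 137 and 131 in WT paused and 27.7, 25.5, 23.9 and 22.9 in WT normal libraries. None of the 4 groups overlapped with another, and the order was WT paused, KO paused, WT normal and KO normal, high to low. Eif4g3 rose 9.54-fold with pausing in KO cells (log2 3.25 ± 0.07, edgeR adjusted p = 2.7e-16) and 4.98-fold in WT cells (log2 2.32 ± 0.07, edgeR adjusted p = 2e-14). Ordered by log2 fold change, Eif4g3 was number 28 of the 18944 genes in KO cells and number 57 in WT cells. The lowest of its libraries still held 641 estimated counts.

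The pausing response of Eif4g3 was larger in KO cells by 0.94 ± 0.10 on the log2 scale (edgeR adjusted p = 5.6e-07), although its level was lower in KO cells in both cultures. It was 1.67-fold lower in KO paused than in WT paused cells (log2 -0.74 ± 0.06, edgeR adjusted p = 1.1e-08) and 3.19-fold lower in KO normal than in WT normal cells (log2 -1.67 ± 0.07, edgeR adjusted p = 4.8e-13). The larger response in KO cells thus began at a lower level in normal culture and ended below the WT paused level. With replicates 1 and 2 alone the interaction was 1.22, and with replicates 3 and 4 alone 0.67, both still called. The response in WT cells was 2.12 and 2.51 in the same order, and KO against WT in normal culture was -1.82 and -1.52.

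Eif4g1, the main eIF4G scaffold, fell with pausing in both genotypes. It averaged 950 ± 38.1 CPM in KO paused and 1228 ± 22.8 CPM in KO normal libraries, against 1027 ± 27.8 CPM in WT paused and 1273 ± 25.2 CPM in WT normal libraries (SD, n = 4 each). Paused and normal libraries did not overlap in either genotype, with log2 fold changes of -0.37 ± 0.03 in KO (edgeR adjusted p = 1.1e-08) and -0.31 ± 0.03 in WT cells (edgeR adjusted p = 1.5e-07). Between genotypes the differences were small, -0.11 ± 0.03 in paused culture (edgeR adjusted p = 0.0058) and -0.05 ± 0.03, which did not pass, in normal culture (edgeR adjusted p = 0.17). Pausing in WT cells gave -0.32 with replicates 1 and 2 alone and -0.31 with replicates 3 and 4 alone. The KO against WT call in paused culture was lost with replicates 1 and 2 alone (-0.09, edgeR adjusted p = 0.11), and the difference in normal culture passed where protein-coding genes alone were fitted (-0.11, edgeR adjusted p = 0.0086).

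Eif4g2, also called DAP5, lacks the eIF4E-binding part of the other scaffolds and is known for translation that does not use eIF4E. Its CPM were 1382, 1336, 1373 and 1336 in KO paused and 1854, 1915, 1948 and 1956 in KO normal libraries. In WT cells they were 1552, 1570, 1543 and 1580 paused and 1879, 1876, 1917 and 1925 normal. KO paused was the lowest group, without overlap, and the 2 normal groups overlapped. Eif4g2 fell with pausing, with a log2 fold change of -0.50 ± 0.03 in KO (edgeR adjusted p = 1.6e-11) and -0.28 ± 0.03 in WT cells (edgeR adjusted p = 4.4e-08). Eif4g2 fell more in KO cells, with an interaction of -0.22 ± 0.04 (edgeR adjusted p = 0.0002). KO was lower than WT in paused culture (-0.20 ± 0.03, edgeR adjusted p = 2.9e-06), and in normal culture the difference was 0.01 ± 0.03 (edgeR adjusted p = 0.65). With replicates 1 and 2 alone pausing in WT cells gave -0.27 and the interaction -0.21, and with replicates 3 and 4 alone -0.31 and -0.22.

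The helicase genes moved in opposite directions with pausing. Eif4a1, the main eIF4A, had 1452, 1342, 1411 and 1349 CPM in KO paused and 1955, 1861, 1891 and 1914 in KO normal libraries. In WT cells it had 1956, 1888, 1843 and 1892 CPM paused and 2363, 2422, 2358 and 2420 normal. KO normal and WT paused libraries overlapped, KO paused was lower and WT normal higher. Eif4a1 fell with pausing by 0.46 ± 0.03 in KO (log2, edgeR adjusted p = 4e-10) and by 0.34 ± 0.03 in WT cells (edgeR adjusted p = 3.2e-08). KO minus WT was -0.45 ± 0.03 paused (edgeR adjusted p = 5.8e-10) and -0.33 ± 0.03 normal (edgeR adjusted p = 3.5e-08). With replicates 1 and 2 alone pausing in WT cells and KO against WT in normal culture each gave -0.32, and with replicates 3 and 4 alone they gave -0.36 and -0.33.

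Eif4a1 is uncertain in its counts, because 26.2% of its distinct 31-base words also occur in transcripts of other genes, mostly in the processed pseudogene Eif4a-ps4, listed at 17.4 to 284 TPM. With the counts of Eif4a-ps4 added, an alternative chosen after seeing the data, pausing gave -0.34 in KO and -0.25 in WT cells, and KO against WT gave -0.43 paused and -0.35 normal, all still called. The small interaction of Eif4a1, -0.12 ± 0.04 (edgeR adjusted p = 0.037), was lost with these counts added (-0.09, edgeR adjusted p = 0.18). It was also lost under RLE scaling (-0.10, adjusted p = 0.087), with DESeq2 (-0.10, adjusted p = 0.057), with length-scaled TPM counts (-0.11, edgeR adjusted p = 0.076), with protein-coding genes alone (-0.05, edgeR adjusted p = 0.34), with replicates 1 and 2 alone (-0.14, edgeR adjusted p = 0.15) and with replicates 3 and 4 alone (-0.10, edgeR adjusted p = 0.2). Leaving out 1 library ended the call without KO paused replicate 2 or 4, KO normal replicate 1, 3 or 4, WT paused replicate 1 or 4, or WT normal replicate 1, 2 or 3 (-0.12 to -0.07, edgeR adjusted p of 0.053 to 0.23). Other members shared such words too, 13.9% for Eif4e3, 11% for Eif4a2, 8.23% for Eif4e and 6.05% for Eif4ebp1. The rest shared 0.173% to 0.905%. No counts of other genes were added for these members.

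Eif4a2, the second eIF4A paralogue, rose with pausing. Its CPM were 473, 483, 451 and 488 in KO paused and 352, 350, 310 and 311 in KO normal libraries. In WT cells they were 510, 510, 485 and 494 paused and 376, 374, 362 and 346 normal. All 8 paused libraries were above all 8 normal libraries, while KO and WT libraries overlapped within each culture. The rise was 1.43-fold in KO (log2 0.52 ± 0.04, edgeR adjusted p = 7.8e-09) and 1.37-fold in WT cells (log2 0.46 ± 0.04, edgeR adjusted p = 5.7e-08). KO minus WT was -0.08 ± 0.04 in paused culture (edgeR adjusted p = 0.14) and -0.14 ± 0.04 in normal culture (edgeR adjusted p = 0.0097), and the second call was lost with replicates 1 and 2 alone (-0.09, edgeR adjusted p = 0.07) and not with replicates 3 and 4 alone (-0.20). Pausing in WT cells gave 0.45 and 0.46 in these subsets. Eif4a2 overlaps Rfc4, a replication factor gene on the opposite strand listed at 69.4 to 101 TPM. The sources used here do not state a stranded count, so reads in the overlap cannot be assigned to either gene with certainty.

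The 4E-BP genes gave the largest differences between the genotypes in paused culture, and in opposite directions. Eif4ebp1 had 327, 375, 355 and 372 CPM in KO paused and 429, 444, 451 and 421 in KO normal libraries. In WT cells it had 159, 149, 166 and 162 CPM paused and 298, 306, 263 and 260 normal. The 4 groups did not overlap, and both KO groups were above both WT groups. Eif4ebp1 was 2.25-fold higher in KO than in WT cells when paused (log2 1.17 ± 0.06, edgeR adjusted p = 2.5e-12) and 1.55-fold higher in normal culture (log2 0.63 ± 0.05, edgeR adjusted p = 7.5e-09).

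Eif4ebp1 fell with pausing, with a log2 fold change of -0.29 ± 0.05 in KO (edgeR adjusted p = 0.00012) and -0.82 ± 0.05 in WT cells (edgeR adjusted p = 2.9e-10). The 2 responses differed by 0.54 ± 0.08 (edgeR adjusted p = 2.5e-05), so the decrease was smaller in KO cells. With replicates 1 and 2 alone pausing in WT cells gave -0.97, the interaction 0.65 and KO against WT in normal culture 0.54, and with replicates 3 and 4 alone they gave -0.68, 0.42 and 0.73, all of them called.

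Eif4ebp2 had 173, 170, 169 and 168 CPM in KO paused and 175, 176, 178 and 178 in KO normal libraries. In WT cells it had 384, 387, 350 and 361 CPM paused and 353, 328, 335 and 344 normal. The KO libraries spanned a narrow range far below the WT libraries, and WT paused and WT normal libraries overlapped. Eif4ebp2 was 2.18-fold lower in KO paused than in WT paused cells (log2 -1.12 ± 0.03, edgeR adjusted p = 1.4e-14) and 1.92-fold lower in KO normal than in WT normal cells (log2 -0.94 ± 0.03, edgeR adjusted p = 7.5e-14). The second value was -0.95 with replicates 1 and 2 alone and -0.94 with replicates 3 and 4 alone.

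The response of Eif4ebp2 to pausing was small. In KO cells it was -0.06 ± 0.03 and did not pass (edgeR adjusted p = 0.15), although the paused and normal libraries did not overlap. In WT cells it was 0.12 ± 0.03 (edgeR adjusted p = 0.0042). That WT call was lost with only WT libraries fitted (0.08, edgeR adjusted p = 0.12), with replicates 3 and 4 alone (0.06, edgeR adjusted p = 0.15) and without WT normal replicate 2 (0.08, edgeR adjusted p = 0.052), and the sign turned with length-scaled TPM counts (-0.03, edgeR adjusted p = 0.41). The interaction of -0.18 ± 0.05 (edgeR adjusted p = 0.0059) was lost without WT normal replicate 2 (-0.12, edgeR adjusted p = 0.055) and with protein-coding genes alone (-0.11, edgeR adjusted p = 0.057).

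Within a library, TPM summed over all transcripts of a gene, coding or not, gave an order of levels that was stable at its ends. Eif4a1 was the highest of the 10 genes and Eif4g2 the second in every group, at 1519 ± 64.6 and 660 ± 14.1 TPM in KO paused, 1804 ± 59.6 and 814 ± 56 TPM in KO normal, 1938 ± 47.6 and 709 ± 25.3 TPM in WT paused, and 2078 ± 109 and 734 ± 22.4 TPM in WT normal libraries (SD, n = 4 each). Eif4e, Eif4ebp2, Eif4g3 and Eif4e3 held places 7 to 10 in that order in all 4 groups. The middle places changed. Neighbours whose ranges overlapped were Eif4a2 and Eif4ebp1 in KO paused, Eif4g1 and Eif4e2 in KO normal, Eif4ebp1 and Eif4e2 in WT paused, and Eif4g1, Eif4ebp1 and Eif4a2 in WT normal cells.

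Ratios of TPM within a library give the proportions of these mRNAs, and are descriptions without a test. The summed 4E-BP transcripts per Eif4e transcript were 3.76 ± 0.315 in KO paused and 3.13 ± 0.0972 in KO normal libraries, against 1.99 ± 0.144 in WT paused and 1.98 ± 0.13 in WT normal libraries (SD, n = 4 each). The lowest KO library, at 3, lay above the highest WT library, at 2.19. Eif4ebp1 per Eif4ebp2 was 8.31 ± 0.66 in KO paused, 9.06 ± 0.37 in KO normal, 1.66 ± 0.0995 in WT paused and 2.96 ± 0.241 in WT normal libraries. The transcripts of the 4E-BP genes in KO cells were thus mainly those of Eif4ebp1. These ratios include Eif4ebp1-202, a transcript without an annotated coding sequence that held most of the TPM of Eif4ebp1 in each group. They are therefore not ratios of coding transcripts. Over the 16 libraries the coding Eif4ebp1-201 averaged 153 TPM, beside 57.6 TPM for Eif4ebp2-201 and 36.6 TPM for Eif4ebp2-202.

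Eif4e2 per Eif4e was 2.04 ± 0.0509 in KO paused and 1.98 ± 0.0464 in KO normal libraries, against 1.18 ± 0.123 in WT paused and 1.23 ± 0.0679 in WT normal libraries. Of the TPM of Eif4g1 and Eif4g3 together, Eif4g3 took 7.24% ± 0.164 in KO paused and 0.647% ± 0.0842 in KO normal libraries, and 10.4% ± 0.424 in WT paused and 2.16% ± 0.237 in WT normal libraries. Even after its rise Eif4g3 thus remained the minor of these scaffolds. Of the TPM of Eif4a1 and Eif4a2 together, Eif4a2 took 26% ± 1.38 in KO paused and 15.5% ± 0.96 in KO normal libraries, and 21.3% ± 0.318 in WT paused and 14% ± 0.748 in WT normal libraries. The share of Eif4a2 was higher in each paused than in each normal library. The main coding transcript Eif4a2-202 held 23.5% to 27.1% of the TPM of Eif4a2 on average in the 4 groups. Eif4a1-213, that of Eif4a1, held 79.5% to 85.2% of its gene's TPM. The helicase shares are therefore not shares of coding transcripts.

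**Figure D3:**
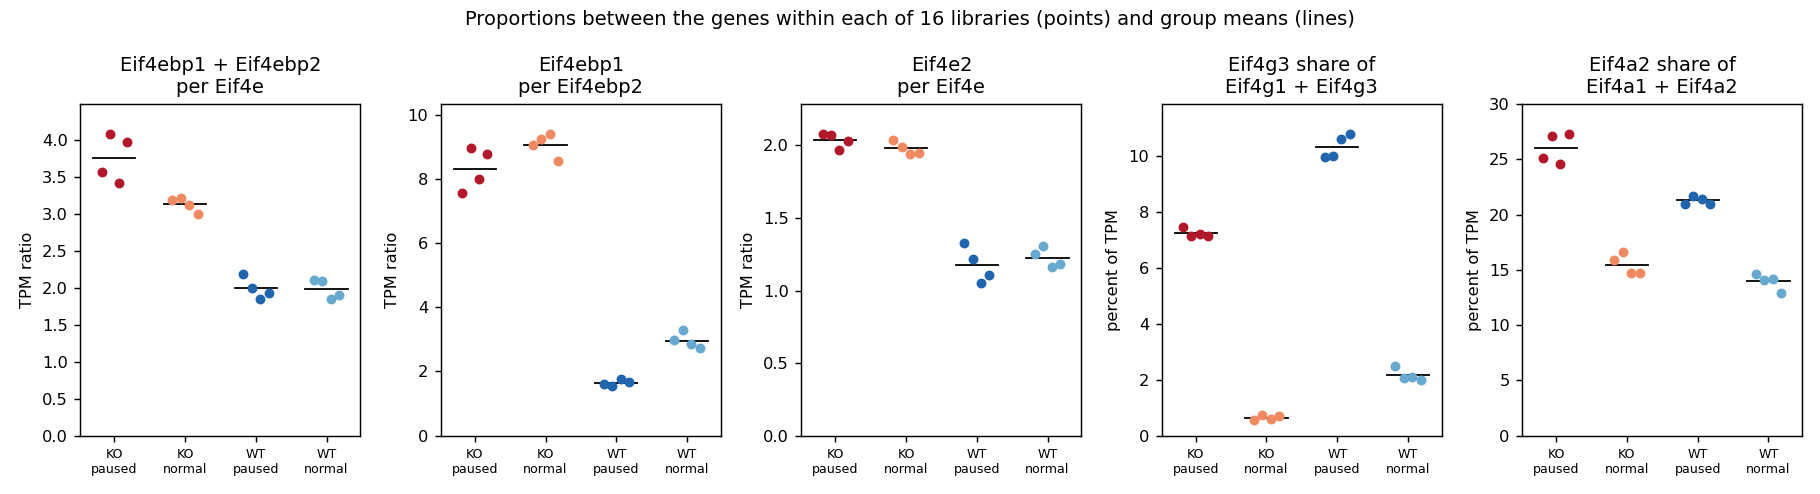
Proportions between the genes as TPM ratios or percent of summed TPM (y axes, from 0) in the 4 libraries (points) of KO paused, KO normal, WT paused and WT normal cells, with group means as lines. The 4E-BP to Eif4e ratio was 3 or above in each KO library and 2.19 or below in each WT library, and the Eif4g3 and Eif4a2 shares were higher in paused than in normal libraries of each genotype. Levels of Eif4ebp1 include a transcript without an annotated coding sequence. Most of the TPM of Eif4a2 lay outside its main coding transcript.

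The 10 genes have 111 annotated transcripts, of which 85 reached a mean of 1 TPM in at least 1 group and 100 passed the filter for the transcript-level test over 65420 transcripts. Of these, 51 were called for pausing in KO cells (40.2% of all transcripts), 54 for pausing in WT cells (34.1%), 17 for the interaction (15.7%), 33 for KO against WT in paused culture (33.9%) and 35 in normal culture (35.2%). With replicates 3 and 4 alone, chosen for transcripts after seeing the data, the calls fell to 7 for the interaction and 23 for KO against WT in normal culture, and with replicates 1 and 2 alone they were 15 and 31. Transcript calls lost in these subsets are named beside the results. The estimated counts of transcripts share reads, and the uncertainty of that assignment is not part of the test.

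Most transcripts of Eif4g3 rose with pausing. Of 10 tested, 7 were called higher and 0 lower in KO cells, and 8 higher and 0 lower in WT cells, where 19.7% and 17.8% of all transcripts were called higher in KO and WT cells. Eif4g3-203 and Eif4g3-208 were called in neither genotype, and Eif4g3-203 was at -0.92 ± 1.69 in KO cells. Eif4g3-215, the most abundant, had 31.3 to 34.6 CPM in KO paused and 3.01 to 3.6 CPM in KO normal libraries, and 47.1 to 59.1 CPM in WT paused and 9.88 to 14 CPM in WT normal libraries. It rose by 3.29 ± 0.11 in KO and 2.13 ± 0.11 in WT cells on the log2 scale. The longer coding transcripts Eif4g3-202 and Eif4g3-205 rose by 2.98 ± 0.42 and 3.22 ± 0.81 in KO, and by 2.38 ± 0.40 and 2.63 ± 0.77 in WT cells. With replicates 1 and 2 alone Eif4g3-215 gave 1.81 in WT cells, and with replicates 3 and 4 alone 2.47. Eif4g3-215 held 35.8% ± 1.34 of the gene's TPM in KO paused, 32.4% ± 2.12 in KO normal, 35.2% ± 1.15 in WT paused and 34% ± 4.92 in WT normal libraries.

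Eif4a2-203, at 0 CPM in all normal libraries, was at 10.19 ± 3.63 in KO and 7.74 ± 3.91 in WT cells with pausing, neither called. Among the transcripts of Eif4a2 called for pausing, the one with the largest fold change was Eif4a2-216, a retained-intron transcript. It had 6.45 to 7.64 CPM in KO paused and 0 to 0.655 CPM in KO normal libraries, and 8.35 to 11.3 CPM in WT paused and 0.574 to 1.65 CPM in WT normal libraries. Its log2 fold change was 4.34 ± 0.60 in KO (edgeR adjusted p = 3.4e-05) and 3.40 ± 0.56 in WT cells (edgeR adjusted p = 0.00021). It held 3.76% ± 0.174 of the TPM of Eif4a2 in KO paused and 4.93% ± 0.736 in WT paused libraries, so most of the paused level lay in other transcripts. The coding transcript Eif4a2-202 rose by 0.40 ± 0.05 in KO and 0.54 ± 0.05 in WT cells, and Eif4a2-210, annotated as a target of nonsense-mediated decay, by 0.98 ± 0.09 and 0.58 ± 0.09. Another transcript of that annotation, Eif4a2-204, rose by 0.22 ± 0.07 in KO cells, a call lost with replicates 3 and 4 alone (0.21, edgeR adjusted p = 0.081), and was at 0.09 ± 0.07 in WT cells, which did not pass. In WT cells it was called with replicates 1 and 2 alone (0.26, edgeR adjusted p = 0.011) and was -0.10 with replicates 3 and 4 alone.

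The transcripts of Eif4e2 had different values, and whether these follow the length of the 3′ UTR was not tested. Those that hold the seed matches printed above were minor. Eif4e2-202 had 41.6 to 47.6 CPM in KO paused and 27.5 to 33.5 CPM in WT paused libraries, and 48.7 to 58 CPM in KO normal and 19.7 to 25.1 CPM in WT normal libraries. Its KO against WT log2 fold change was 0.56 ± 0.09 in paused (edgeR adjusted p = 0.00011) and 1.20 ± 0.09 in normal culture (edgeR adjusted p = 4.3e-08). Eif4e2-207 gave 0.72 ± 0.11 and 1.07 ± 0.11, both called. Eif4e2-201, with a 3′ UTR of 2003 bases and no match, gave 0.38 ± 0.11 and 0.78 ± 0.11, both called, the first not with replicates 1 and 2 alone (0.41, edgeR adjusted p = 0.077) or replicates 3 and 4 alone (0.36, edgeR adjusted p = 0.077). Eif4e2-206, with 983 bases and no match, gave -0.07 ± 0.11 and 0.12 ± 0.11, neither called.

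The main short form, Eif4e2-204, had 120 to 128 CPM in KO paused and 91.4 to 98.3 CPM in WT paused libraries, and 209 to 213 CPM in KO normal and 156 to 174 CPM in WT normal libraries. It held 69.4% to 75.8% of the gene's TPM on average in the 4 groups. KO against WT gave 0.39 ± 0.04 in paused (edgeR adjusted p = 7.7e-07) and 0.36 ± 0.04 in normal culture (edgeR adjusted p = 1.6e-06), smaller values than those of Eif4e2-202 and Eif4e2-207. Of the other short forms, Eif4e2-203 gave 1.09 ± 0.08 and 0.69 ± 0.08, both called, and Eif4e2-205 gave 0.14 ± 0.11, which did not pass, and -0.54 ± 0.11, called lower. The short forms thus did not share a value, and the differences between transcripts were not tested.

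With pausing in WT cells, Eif4e2-202 and Eif4e2-207 rose by 0.43 ± 0.09 and 0.58 ± 0.11, while Eif4e2-203, Eif4e2-204 and Eif4e2-205 fell, with log2 fold changes of -1.42 ± 0.08, -0.81 ± 0.04 and -0.91 ± 0.11. The rise of Eif4e2-202 was lost with replicates 3 and 4 alone (0.20, edgeR adjusted p = 0.12). Eif4e2-201 was at 0.32 ± 0.11 (edgeR adjusted p = 0.03), a call lost with either pair of replicates (0.43 and 0.21) and without KO normal replicate 2, WT paused replicate 1, 3 or 4, or WT normal replicate 1, 2 or 3 (0.24 to 0.32). In KO cells Eif4e2-202 and Eif4e2-207 were at -0.20 ± 0.09 and 0.24 ± 0.11 and Eif4e2-201 at -0.08 ± 0.11, none called. Eif4e2-203 and Eif4e2-204 fell there with -1.02 ± 0.08 and -0.77 ± 0.04, and Eif4e2-205 was at -0.23 ± 0.11, which did not pass. The pausing response of Eif4e2-202 was lower in KO than in WT cells, with an interaction of -0.63 ± 0.12 (edgeR adjusted p = 0.0024).

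**Figure D4:**
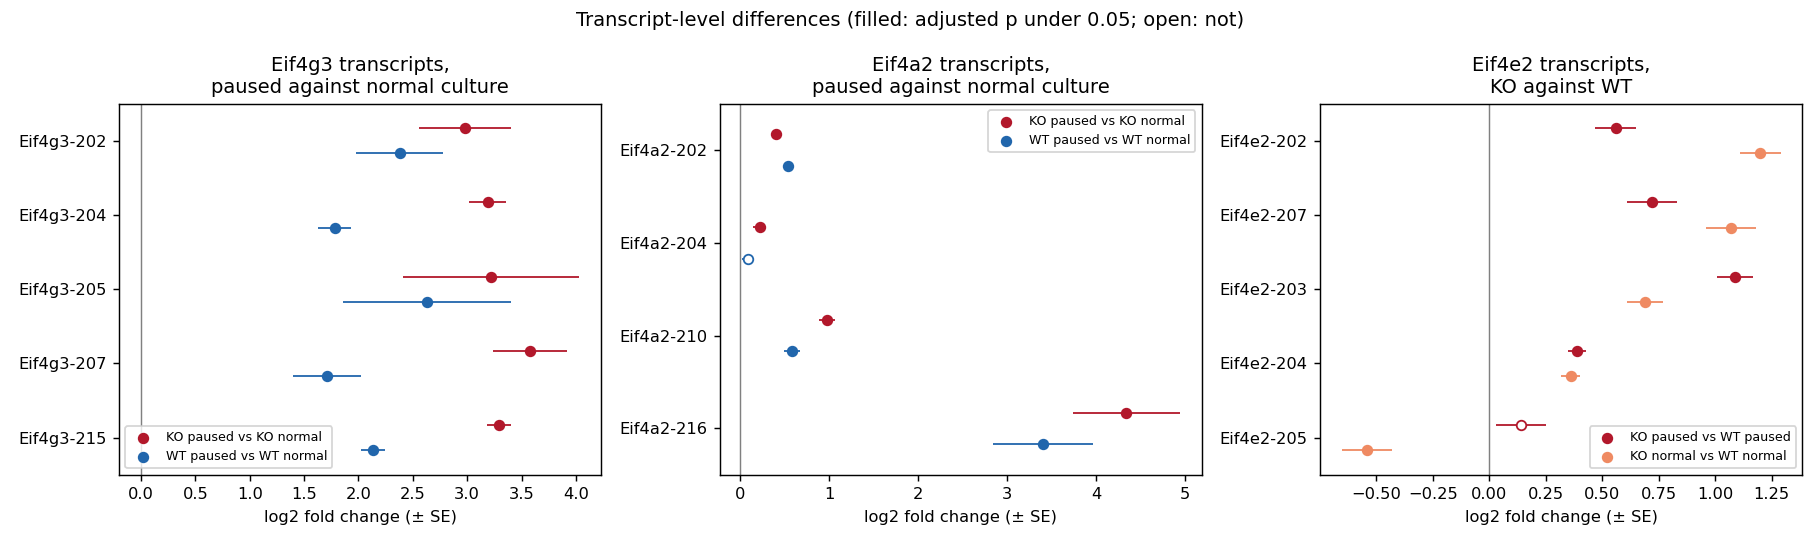
Log2 fold change with its SE (x axis) of named transcripts, in paused against normal culture for Eif4g3 and Eif4a2 in KO and WT cells, and in KO against WT cells for Eif4e2 in paused and normal culture; filled points passed an adjusted p of 0.05 over all transcripts in edgeR. Each Eif4g3 transcript shown lies at 1.71 or above, and the long Eif4e2-202 and Eif4e2-207 lie right of the main short form Eif4e2-204 in both cultures. The short Eif4e2-203 lies right of both long forms in paused culture, at 1.09 against 0.56 and 0.72.

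For Eif4e, the long transcript Eif4e-201, which holds the match to the miR-294-3p seed, was lower in KO than in WT cells. It had 68.9 to 73.9 CPM in KO paused and 96.2 to 103 CPM in WT paused libraries, and 114 to 124 CPM in KO normal and 146 to 153 CPM in WT normal libraries. KO against WT gave -0.47 ± 0.03 in paused (edgeR adjusted p = 4.5e-08) and -0.31 ± 0.03 in normal culture (edgeR adjusted p = 3.1e-06). The short Eif4e-202, without the match, gave -0.41 ± 0.07 and -0.27 ± 0.07, both called lower, the second not with replicates 3 and 4 alone (-0.17, edgeR adjusted p = 0.099). Eif4e-205, also short and without the match, gave -0.30 ± 0.06 and -0.28 ± 0.06, both called lower with all libraries fitted. Eif4e-206, likewise without it, gave -0.22 ± 0.16 and -0.34 ± 0.16, neither called. For Eif4e-205 and Eif4e-206 the subsets of replicates are not given. The direction in transcripts with the match was thus opposite between Eif4e and Eif4e2.

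The coding transcripts of Eif4g2 that hold the matches did not differ in their normal-culture calls. KO against WT in normal culture was -0.01 ± 0.03 for Eif4g2-206 and 0.05 ± 0.03 for Eif4g2-213, neither called, and in paused culture -0.29 ± 0.03 and -0.25 ± 0.03, both called lower. Eif4g2-206 held 57.5% to 62.6% and Eif4g2-213 12.5% to 14.4% of the gene's TPM on average in the 4 groups. Of the Eif4g1 transcripts, Eif4g1-202, the most abundant, fell with pausing by 0.30 ± 0.03 in KO and 0.24 ± 0.03 in WT cells, and Eif4g1-205 by 1.08 ± 0.07 and 0.67 ± 0.07. The main coding transcript of Eif4a1, Eif4a1-213, held 79.5% ± 1.4 of its gene's TPM in KO paused and 85.2% ± 0.395 in WT paused libraries and fell with pausing by 0.61 ± 0.04 in KO and 0.38 ± 0.04 in WT cells.

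Both transcripts of each 4E-BP gene gave the gene's direction between genotypes. The coding transcript Eif4ebp1-201 was higher in KO by 1.14 ± 0.05 in paused and 0.66 ± 0.05 in normal culture, and Eif4ebp1-202, a processed transcript without an annotated coding sequence, by 1.03 ± 0.06 and 0.58 ± 0.06. Eif4ebp1-202 held 60.4% to 65.5% of the gene's TPM on average in the 4 groups, so a large share of the Eif4ebp1 level was assigned to a transcript that is not annotated as coding. For Eif4ebp2, KO against WT gave -1.16 ± 0.04 in paused and -0.92 ± 0.04 in normal culture for the long Eif4ebp2-201, and -1.44 ± 0.07 and -1.11 ± 0.07 for the short Eif4ebp2-202.

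With pausing the forms of Eif4ebp2 diverged. Eif4ebp2-202 fell with a log2 fold change of -0.77 ± 0.07 in KO and -0.45 ± 0.07 in WT cells. Eif4ebp2-201 was at -0.08 ± 0.04 in KO cells, which did not pass, and rose by 0.17 ± 0.04 in WT cells, which was lost without WT normal replicate 2 (0.12) and with replicates 3 and 4 alone (0.05). The long form therefore held 69.1% ± 2.22 of the gene's TPM in KO paused and 57.9% ± 0.942 in KO normal libraries, and 64.8% ± 2.74 in WT paused and 54.6% ± 2.25 in WT normal libraries. The gene-level pausing value of Eif4ebp2 in WT cells turned sign with length-scaled TPM counts, and whether this shift between forms had a part in that was not tested.

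Other factors of translation were read from lists of names. Of 20 partners and regulators of the cap complex, 5 were higher and 10 lower with pausing in KO cells, with a list median of -0.16 beside 0.02 over all genes. Of all genes tested, 34.4% were called higher and 32.8% lower there. In WT cells 7 of the 20 were higher and 7 lower, with a median of 0.04 for the list and 0.04 for all genes. The shares over all genes in WT cells were 33.3% higher and 27.5% lower. Pabpc1, the poly(A)-binding protein that joins eIF4G, fell with log2 fold changes of -0.85 ± 0.04 in KO and -0.68 ± 0.04 in WT cells. Eif4ebp3, the remaining 4E-BP gene, rose by 1.24 ± 0.23 and 0.81 ± 0.24 in the same order, the WT call being lost with replicates 3 and 4 alone (0.43, edgeR adjusted p = 0.27). Its level was very low, at a mean of 1.38 CPM in KO paused and 0.583 CPM in KO normal libraries. In WT cells the means of Eif4ebp3 were 0.946 CPM paused and 0.543 CPM normal. Pdcd4, a repressor that binds eIF4A, rose by 0.98 ± 0.05 in WT cells, and its response was lower in KO cells, with an interaction of -0.72 ± 0.07 (edgeR adjusted p = 3.1e-07).

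Between genotypes, 5 of the 20 partners were higher and 6 lower in KO paused than in WT paused cells, and 12 were higher and 5 lower in KO normal than in WT normal cells. The second counts were 11 and 4 with replicates 1 and 2 alone, and unchanged with replicates 3 and 4 alone. Over all genes tested, 30.8% were called higher and 34.5% lower in paused culture, and 34.1% in each direction in normal culture. Mknk1, a kinase that phosphorylates eIF4E, was higher in KO by 1.34 ± 0.07 paused (edgeR adjusted p = 4.8e-12) and 1.05 ± 0.07 normal (edgeR adjusted p = 1e-10). Gigyf2, the partner of Eif4e2, was higher in KO by 0.56 ± 0.05 paused (edgeR adjusted p = 1.6e-08) and 0.53 ± 0.05 normal (edgeR adjusted p = 3.1e-08). Paip2b, an inhibitor of poly(A)-binding protein, was lower in KO, with log2 fold changes of -1.11 ± 0.07 paused and -0.84 ± 0.06 normal. Eif4e1b, an eIF4E paralogue known from oocytes, was lower in KO normal than in WT normal cells, with a log2 fold change of -1.75 ± 0.25 (edgeR adjusted p = 5.1e-06). Eif4e1b was barely detected, at a mean of 0.284 CPM in KO normal and 0.954 CPM in WT normal libraries.

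The remaining initiation factors mostly fell with pausing. Over all genes tested, 34.4% were called higher and 32.8% lower in KO cells, with a median of 0.02. In WT cells 33.3% of all genes were called higher and 27.5% lower, with a median of 0.04. Of 13 eIF3 subunits, 1 was higher and 11 lower in KO cells, and 0 were higher and 10 lower in WT cells, each with a median of -0.30. In WT cells 9 eIF3 subunits were lower with replicates 1 and 2 alone and 12 with replicates 3 and 4 alone. Of 14 factors of the eIF1, eIF2, eIF2B, eIF5 and eIF6 groups, 0 were higher and 12 lower in KO cells (median -0.62), and 0 were higher and 13 lower in WT cells (median -0.49). Eif2s3x, a subunit of the eIF2 complex that carries the initiator tRNA, fell with -0.94 ± 0.03 in KO and -0.87 ± 0.03 in WT cells, and Eif3b, an eIF3 core subunit, with -0.80 ± 0.04 in KO cells.

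Over all genes tested, pausing gave 34.4% higher and 32.8% lower in KO cells (median 0.02), and 33.3% and 27.5% in WT cells (median 0.04). Of 9 elongation and termination factors, 3 were higher and 6 lower in KO cells (median -0.29), and 2 were higher and 6 lower in WT cells (median -0.23). The higher ones included Eef1a1, which delivers aminoacyl-tRNA (0.50 ± 0.03 in KO and 0.53 ± 0.03 in WT cells), and Eef2, the translocase (0.40 ± 0.05 and 0.61 ± 0.05). Eef1d, an exchange factor for eEF1A, fell with -1.06 ± 0.05 and -0.85 ± 0.05 in the same order. Of the 10 cap-complex genes, Eif4g3 and Eif4a2 were the 2 called higher in both genotypes.

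**Figure D5:**
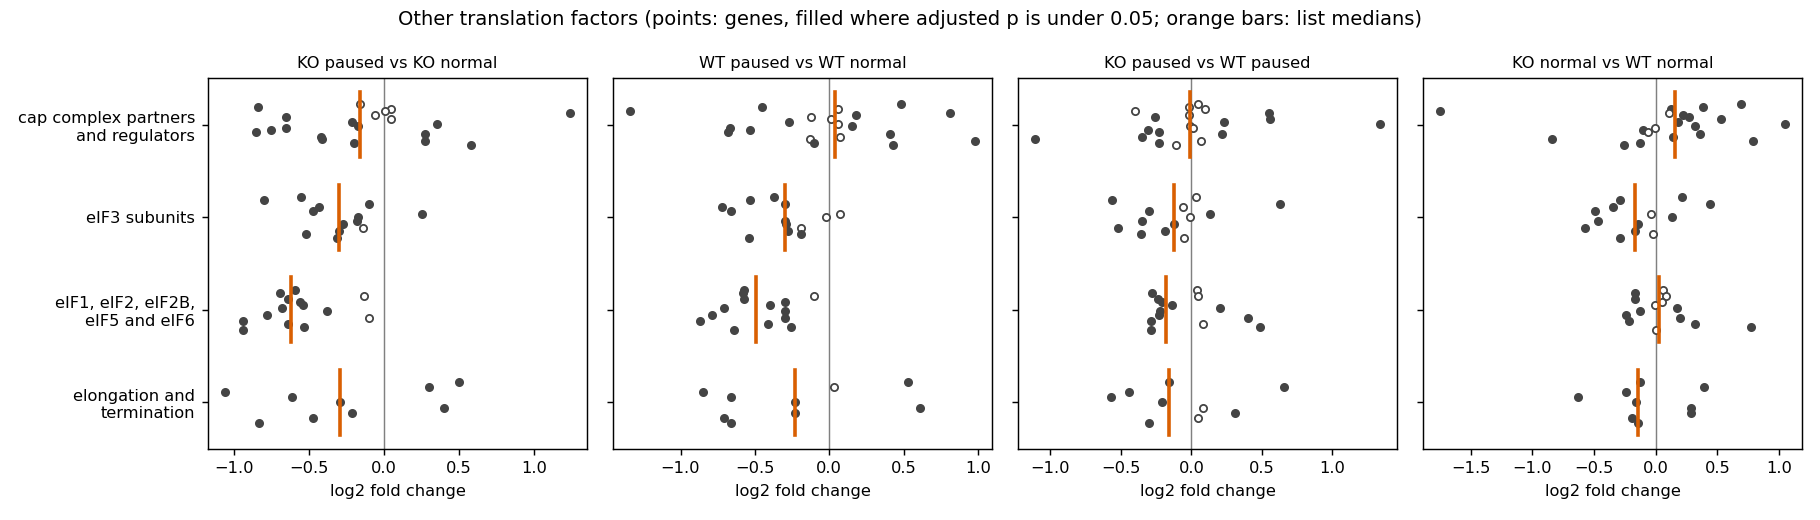
Log2 fold change (x axis) of the other translation factors in 4 lists, for KO paused against KO normal, WT paused against WT normal, KO paused against WT paused and KO normal against WT normal; points are genes, filled where the edgeR adjusted p was under 0.05, and orange bars are list medians. The eIF1 to eIF6 list lies mostly left of 0 in both pausing comparisons, with medians of -0.62 in KO and -0.49 in WT cells.

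Patterns like those of Eif4g3 and Eif4ebp1 were sought over the 4 group means among 9290 protein-coding genes, by the root mean square difference in centred log2 CPM. Nearest to Eif4g3 were Tnrc18 at 0.59, Dusp4 at 0.63, Crebrf at 0.65, and Mettl27 and Sox21 at 0.71 on the log2 scale. Tnrc18 averaged 82.9 CPM in KO paused and 22.3 CPM in KO normal libraries, and 152 CPM in WT paused and 60.6 CPM in WT normal libraries. For Eif4ebp1 the nearest were much closer, Capn1 and March5 at 0.04, Tars and Myh14 at 0.05 and Slc4a8 at 0.06. Tars, the cytosolic threonyl-tRNA synthetase gene, averaged 401 CPM in KO paused and 499 CPM in KO normal libraries, and 173 CPM in WT paused and 338 CPM in WT normal libraries. Tnrc18 and Crebrf shared the order of the 4 groups with Eif4g3, and Dusp4, Mettl27 and Sox21 did not. Likeness of this kind rests on 4 group means per gene.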

How the data were processed

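Poly(A)-selected RNA of 16 libraries was measured. Per the submitters' processing notes the authors ran kallisto on GRCm38. Its version is not given in the sources used here. Per the file headers the deposited values per transcript are estimated counts (expected counts) and TPM, beside effective lengths. Of 118489 versioned transcript identifiers, 116728 were in GENCODE M21. Without a match were 1761, with 0.656% to 0.712% of a library, and they entered no sum. Sums of estimated counts per gene were rounded. Genes were filtered with filterByExpr at a minimum count of 10, scaled by TMM (factors 0.933 to 1.07) and compared two-sided by edgeR 4.0.16 (R 4.3.3), using its quasi-likelihood F test with robust priors, 1 mean for each group, all 16 libraries in the fit, and Benjamini-Hochberg adjustment over the 18944 genes of each of 5 contrasts at 0.05. The biological coefficient of variation was 0.0852. The SE is the absolute log2 fold change over the square root of F. Transcripts were tested alike over 65420 transcripts. The gene fit was also run on simulated counts with known changes in a small set of genes of WT paused libraries. It checked the computation alone, since far more genes were called in these data.

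Members and lists were chosen with earlier results of these data known. Named were the 10 genes, the 2 highest and 2 lowest called genes of each list per comparison, the 5 genes most like Eif4g3 and Eif4ebp1 (mean log2 CPM of at least 3, pseudocount of 0.1), transcripts with a mean of at least 1 TPM in a group, and Dgcr8; not all of these are described. Alternatives were RLE scaling, DESeq2 1.42.0, no filter on low counts, only the groups compared, a replicate block, length-scaled TPM counts (which use the deposited effective lengths), protein-coding genes alone, subsets of replicates (for transcripts and lists chosen after seeing the data) and each library left out. The labels state no pairing, and replicate numbers were not taken as pairs. The correlations between same-numbered libraries cannot exclude a weak pairing. MicroRNA levels were not analysed here. Intervals and SEs cover the spread between libraries, and the uncertainty of assigning reads to transcripts is not in them.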

Additional observations from a re-analysis of the deposited data

Results flagged for a closer look

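The response to pausing differed between KO and WT cells, by the interaction term in edgeR, for 5 of the 10 genes. Eif4g3 rose more in KO cells, by 0.94 ± 0.10 on the log2 scale (edgeR adjusted p = 5.6e-07), with log2 fold changes of 3.25 in KO and 2.32 in WT cells and no overlap between paused and normal libraries in either genotype. Eif4ebp1 fell less in KO cells, with a difference of 0.54 ± 0.08 (edgeR adjusted p = 2.5e-05) between -0.29 in KO and -0.82 in WT cells. Eif4g2 fell more in KO cells, with a difference of -0.22 ± 0.04 (edgeR adjusted p = 0.0002) between -0.50 and -0.28. The interaction of Eif4ebp2 was -0.18 ± 0.05 (edgeR adjusted p = 0.0059), with pausing at -0.06 in KO and 0.12 in WT cells. That of Eif4a1 was -0.12 ± 0.04 (edgeR adjusted p = 0.037), with -0.46 in KO and -0.34 in WT cells. The interactions of Eif4a1 and Eif4ebp2 did not hold under all alternatives. In the 40 combinations of gene and group, no single library stood apart by Dixon's test. With 4 libraries per group that test flags only a library far from the rest, and cannot show the split among WT normal libraries.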

How the results depend on the processing

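Over 1290 recomputed values of the 10 genes, 1240 kept their direction and their side of the threshold, 24 lost and 6 gained the call and 20 changed sign, of which 1 was a called result. That one was Eif4ebp2 for pausing in WT cells, -0.03 with length-scaled TPM counts, against 0.12; the cause was not tested. The other sign changes were of uncalled values. For Eif4g2, KO against WT in normal culture was -0.00 under RLE scaling, with DESeq2 and without WT normal replicate 2, and -0.04 with protein-coding genes alone. The interaction of Eif4e was 0.01 with protein-coding genes alone and 0.03 with replicates 1 and 2 alone, that of Eif4g1 0.01 with protein-coding genes alone and that of Eif4a2 -0.00 with replicates 1 and 2 alone. Eif4e3 for pausing in KO cells was -0.00 without a filter and -0.27 with replicates 1 and 2 alone, and -0.10 to 0.13 with a library left out, where pausing in WT cells ran between -0.04 and 0.30 and the interaction between -0.28 and 0.08. With replicates 3 and 4 alone Eif4e3 was -0.22 for pausing in WT cells, -0.25 for KO against WT in normal culture and 0.58 for the interaction. Among transcripts, Eif4a2-202 for KO against WT in normal culture was 0.01 without a filter and -0.08 to 0.03 with a library left out, and Eif4g2-206 was 0.00 without a filter. With replicates 1 and 2 alone, signs turned for Eif4a2-202 between genotypes in normal culture (0.06), for pausing of Eif4e2-201 in KO cells (0.07) and for the interactions of Eif4a2-204 (-0.01), Eif4e-202 (0.04) and Eif4g1-202 (0.03). With replicates 3 and 4 alone they turned for pausing of Eif4a2-204 in WT cells (-0.10), for the interactions of Eif4g3-205 (-0.41) and Eif4e2-206 (0.08), for KO against WT in normal culture of Eif4g1-205 (-0.01) and Eif4e2-206 (-0.01), and in paused culture of Eif4a2-204 (0.03) and Eif4e2-206 (0.07). Eif4e2-206 in paused culture ran between -0.12 and 0.02 with a library left out. Eif4ebp2 for pausing in KO cells became a call at -0.24 with length-scaled TPM counts and at -0.07 with only the groups compared. The interaction of Eif4e2 became a call at 0.13 with protein-coding genes alone. The number of members called ranged with a library left out: 8 to 8 for pausing in KO cells, 8 to 9 in WT cells, 3 to 5 for the interaction (3 without WT normal replicate 2), 8 to 8 for KO against WT in paused and 7 to 8 in normal culture. Member transcripts called for the interaction ranged between 10 and 22 with a library left out (10 without KO normal replicate 3 and 11 without WT normal replicate 2). With replicates 3 and 4 alone they were 7, and 23 for KO against WT in normal culture. Same-numbered libraries correlated at -0.23 to 0.42 over 24 pairs, 12 of them over 0.1, and 6 of 16 libraries correlated best with their own number, so the numbers were not taken as pairs. With the replicate block, members called were 8 for pausing in KO and 9 in WT cells, 5 for the interaction, and 8 and 7 for KO against WT in paused and normal culture, and no member changed its call. Counts of pseudogenes whose names are a member's symbol followed by -ps gave no value, since none is so named. Eif4e3 had 38 to 83 estimated counts in a library.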
